A study of Mus musculus with 12 samples.

Results

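The genes described here are 45 DNA replication and nucleotide synthesis genes, of 15803 genes with a read in at least 1 of 12 libraries. They were listed by symbol, for what their proteins do in S phase, with earlier results of these data known. All 45 had reads in all 12 libraries, and all 45 passed the filter on low values in both assays. They fall into 7 groups by role: 11 genes of origin licensing, 6 of helicase activation, 9 of the polymerases and primase, 8 of the clamp, clamp loader and Okazaki fragment maturation, 4 of nucleotide synthesis, 3 G1/S regulators and 4 of chromatin replication and histone mRNA.

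KPC cells, a mouse PDAC line from mice with a Cre-activated (LSL) missense Trp53 allele and Pdx1-Cre, which drives recombination in the pancreatic lineage, were left untreated or treated with 20 μM cisplatin (Cis) for 6 or 21 h. All 12 libraries come from this mutant line, and the control is the same line without Cis. Ribosome profiling sequences the mRNA fragments that ribosomes protect (footprints), RNA-seq measures the mRNA itself, and dividing footprints by RNA gives the translation efficiency (TE). Each assay had 2 untreated libraries, 2 at 6 h and 2 at 21 h, which the labels number as replicates without saying that they were separate cultures, so the p-values measure the spread between these libraries. The methods name PBS as the vehicle for 6 or 21 h, while the labels give the controls no vehicle and no duration, and the same controls served both times.

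Before S phase, the origin recognition complex (ORC), Cdc6 and Cdt1 load the Mcm2 to Mcm7 helicase onto origins. Mcm10, Cdc45 and the GINS complex turn the loaded helicase into a moving one, polymerase α with its primase starts each strand, and polymerases δ and ε extend them on the Pcna clamp that the Rfc complex loads. Many of these genes are transcribed at the G1/S boundary by E2F factors, and cisplatin makes DNA crosslinks that stall replication forks.

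Footprint libraries held 3375480 to 5204127 reads and RNA-seq libraries 1985344 to 2901692, of which 51.8 to 56.6% came from 3 transcripts outside the list. Levels are given as RPKM, reads scaled to length and library depth, where the length is the coding sequence in ribosome profiling and the whole transcript in RNA-seq. The lowest read number of a listed gene in a library was 41 for footprints and 11 for RNA-seq. Among the epithelial markers, Krt8, Krt18, Krt19 and Cdh1 were high and Epcam and Cldn4 were at or near 0, with at most 1.83 RPKM in a footprint library. The summed footprints of all 7 epithelial markers were 6697 to 9781 RPKM, against at most 5.4 for 4 immune markers, 0.666 for 3 endothelial markers and 9.47 for 6 fibroblast markers. The defining immune and endothelial markers Ptprc and Pecam1 were each at 0 in at least 1 footprint library. Some markers differed between the groups. Krt8 had 4819 and 4679 RPKM of footprints in untreated cells and 3214 and 3261 at 21 h, Krt19 3082 and 2683 against 1716 and 1608, and the macrophage marker Cd68 1.34 and 2.35 against 5.4 and 2.85. Krt18 had 1720 and 1570 RPKM against 1668 and 1856, and its RNA 426 and 421 against 544 and 534. The part of these markers in the results below was not tested.

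Promoter windows, from 250 bases before to 50 bases after the annotated start, were taken from RefSeq (GRCm38.p6) for 36 of the 45 genes, and not for Gmnn, Mcm4, Gins1, Gins2, Gins4, Prim2, Pole, Rfc2 or Ccne2. Mcm7, Pold2, Fen1 and Uhrf1 had 2 windows and Lig1 had 3, and a match in any window of a gene counted. An E2F site, searched as TTTCCCGC, TTTCGCGC, TTTGCCGC or TTTGGCGC on both strands, lay in a window of 15 of the 36 genes (41.7%). The same letters lay in 5.19% of 8395 genes tested in footprints and in 2.6% of all 27025 genes with a window. The CCAAT box (CCAAT, both strands) was found for 58.3% of the 36 genes, against 43.7 and 41.1%. The CHR element (TTTGAA, both strands) was found for 13.9%, against 14.2 and 20.2%. The stretches around the sites of 5 genes are shown on the strand of the gene, with the matches in capitals, because they span the outcomes described below, and the coordinates are those of this build. Cdc6 (chr11:98907988-98908045), Mcm5 (chr8:75109331-75109392) and Orc1 (chr4:108579402-108579453) rose, Mcm6 (chr1:128359720-128359840) was not called, and Pola1 (chrX:93632261-93632318) fell.
Cdc6: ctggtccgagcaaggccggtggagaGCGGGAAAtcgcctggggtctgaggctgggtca
Mcm5: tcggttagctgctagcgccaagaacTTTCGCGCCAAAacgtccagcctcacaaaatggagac
Orc1: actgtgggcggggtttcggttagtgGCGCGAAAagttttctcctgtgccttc
Mcm6: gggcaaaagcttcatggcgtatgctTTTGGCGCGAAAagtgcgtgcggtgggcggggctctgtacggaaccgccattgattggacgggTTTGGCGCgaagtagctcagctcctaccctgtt
Pola1: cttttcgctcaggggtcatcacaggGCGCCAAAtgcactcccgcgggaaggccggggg

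In the Mcm5 stretch and in the first match of Mcm6, 2 matches overlap on opposite strands. A match is a description of the letters in the window, and binding was not measured here.

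In untreated cells the genes spanned a wide range of footprint levels. Pole, the catalytic subunit of polymerase ε, had the lowest mean, 6.56 RPKM, and Pcna the highest, 1363 RPKM. The median over the 45 genes was 60.4 RPKM. Over all transcripts with a read in an untreated footprint library, with no filter on low values, it was 11.2 RPKM. In RNA-seq the lowest mean was that of Orc1 (3.26 RPKM) and the highest again that of Pcna (123 RPKM). The members' median was 11 RPKM, against 3.78 over all transcripts with a read in an untreated RNA-seq library, again unfiltered.

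TE in untreated cells is given on the log2 scale relative to the median of 9312 transcripts. It lay above that median for 35 of the 45 genes, whose median over all 45 was 0.38, at the 65.2 percentile. The highest means were those of Rrm2, Gins1 and Tyms. Rrm2, the ribonucleotide reductase subunit that is limiting for dNTPs, reached 2.04 and 1.9 in the libraries of replicate numbers 1 and 2. Tyms, the thymidylate synthase, reached 1.73 and 2.19. Gins1 reached 2.05 and 1.86. Pcna (1.77) and Slbp (1.77), the last a protein that binds the stem-loop of histone mRNA, followed, and the libraries of these 5 genes overlapped in part.

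E2f1, the transcription factor of the G1/S boundary, stood alone at the low end with -2.22 and -2.42, at the 1.85 percentile. Its footprints were 9.53 and 9.98 RPKM in untreated cells while its RNA, at 13.7 and 17.3 RPKM, exceeded the members' median. The next lowest were Pole (-0.79), Rfc1 (-0.51) and Cdt1 (-0.49), whose libraries overlapped one another and did not reach those of E2f1. Replicate numbers do not tie a footprint library to an RNA-seq library, so the spread of these TE values is approximate.

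**Figure D1:**
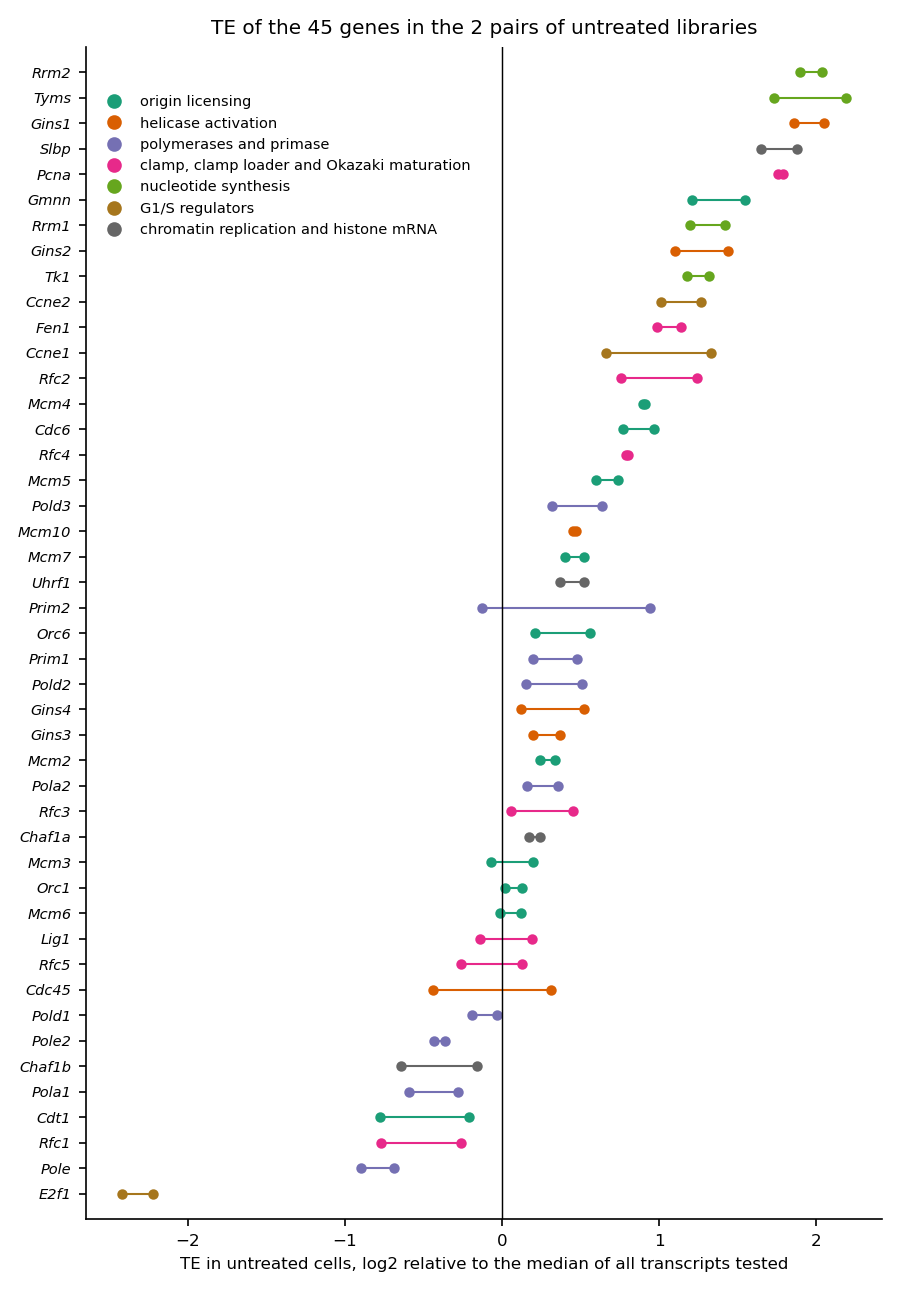
TE of the 45 genes in untreated cells, on the log2 scale relative to the median of all transcripts tested (x axis), with a point for each pair of libraries of the same replicate number and colours for the roles. Rrm2, Gins1 and Tyms lie near 2, most genes lie between -1 and 1.4, and E2f1 lies apart at -2.32.

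At 6 h of Cis, footprints rose on 5 of the 45 genes and fell on none. These were Ccne1, Orc1, Cdt1, Ccne2 and Slbp, with log2 fold changes from 0.41 to 0.97. Of all 10390 transcripts tested, 1.05% were called higher and 0.991% lower (limma, adjusted p under 0.05). The median change of the 45 genes was 0.15, against -0.01 over all transcripts, and 34 of the 45 changes were above 0. By role, the median was highest for the 3 G1/S regulators (0.59, 2 called) and lowest for the 9 polymerase and primase genes (-0.01, 0 called), with 2 of 11 licensing genes and 1 of 4 chromatin genes called. Fold changes are on the scale of log2(RPKM + 0.5), which understates the change of genes at low levels. In such bulk samples, fewer cells of a type and less RNA per cell cannot be told apart.

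Ccne1 encodes cyclin E1, which activates Cdk2 at the G1/S boundary. It had 59.2 and 49.3 RPKM of footprints in untreated cells, 113 and 101 at 6 h and 61.6 and 76.7 at 21 h. Both 6 h libraries stood above all the others, and those of 21 h lay just above the untreated ones. Ccne1 rose by 0.97 ± 0.14 (log2 fold change ± SE) at 6 h (limma, adjusted p = 0.0253), while the 0.31 ± 0.14 at 21 h was not called (adjusted p = 0.104).

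Ccne2, which encodes cyclin E2, was called higher at both times. It had 60.4 and 60.4 RPKM in untreated cells, 96.4 and 87.8 at 6 h and 116 and 112 at 21 h, without overlap between the groups. Its log2 fold changes were 0.59 ± 0.09 at 6 h (limma, adjusted p = 0.029) and 0.88 ± 0.09 at 21 h (adjusted p = 0.000256).

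Orc1, the ATPase subunit of ORC, had 12.4 and 12.1 RPKM in untreated cells, 20.2 and 20.8 at 6 h and 21.3 and 22.5 at 21 h. Its footprints were at nearly the same level at both times of treatment, and all 4 treated libraries stood above the controls. The change was 0.71 ± 0.13 at 6 h (limma, adjusted p = 0.0383) and 0.78 ± 0.13 at 21 h (adjusted p = 0.00226).

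Cdt1, the licensing factor that geminin inhibits, had 50.8 and 60 RPKM in untreated cells, 85.1 and 86.2 at 6 h and 123 and 126 at 21 h. Slbp had 194 and 198, 267 and 261, and 457 and 458 RPKM in the same order. Both genes were higher at 6 h than in the controls and higher again at 21 h, with no overlap between groups. At 6 h they rose by 0.61 ± 0.11 (limma, adjusted p = 0.0377) and 0.41 ± 0.08 (adjusted p = 0.0383).

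All 5 calls at 6 h were lost when any untreated or 6 h footprint library was left out. Most of the calls over all transcripts were lost there as well. With limma's voom on the reads recovered from the RPKM values, 13 of the 45 were called higher and 2 lower. Of all 10390 transcripts, voom called 454 higher and 822 lower, against 109 and 103 in the main fit.

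Several genes came close to the threshold at 6 h. Pola1, the catalytic subunit of polymerase α, had 11.1 and 12.4 RPKM in untreated cells and 5.58 and 6.13 at 6 h, a log2 fold change of -0.96 ± 0.21 (limma, adjusted p = 0.0541). Pcna had 1400 and 1326 RPKM against 1656 and 1728, a change of 0.3 ± 0.07 (adjusted p = 0.0662), and Cdc6 changed by 0.37 ± 0.09 (adjusted p = 0.0794). The treated libraries of these genes did not overlap the untreated ones. The members with the largest rises at 21 h differed at 6 h. Chaf1a, Cdc45, Orc6 and Gins3 had 6 h changes of 0.06, -0.02, 0.1 and 0.09, none of them called. Fen1 changed by 0.32 ± 0.1 (limma, adjusted p = 0.115), with both 6 h libraries above the untreated ones. Cdc6, Slbp and Cdt1, also among the largest rises at 21 h, had 6 h changes of 0.37, 0.41 and 0.61.

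In RNA-seq no transcript was called at 6 h in either direction (0% of 9459 higher and 0% lower), the 45 genes included. At an unadjusted p under 0.05 there were 1086 transcripts (11.5%) and 14 members (31.1%), and limma's voom on recovered reads called 56 transcripts higher and 172 lower, with 1 member in each direction. The median change of the members was 0.2, and 38 of 45 were above 0. The members with the largest RNA changes at 6 h were Ccne1 (0.67 ± 0.22), Orc6 (0.65 ± 0.14) and Gins3 (0.6 ± 0.2) upward. Downward they were Pola1 (-1.04 ± 0.28) and Prim2 (-0.67 ± 0.37). The untreated and 6 h RNA libraries of Prim2 overlapped.

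At 21 h most of the genes had risen. Footprints were higher on 29 of the 45 genes (64.4%) and lower on 4 (8.89%), and 12 were not called, while 18.9% of all transcripts were called higher and 20.2% lower. The median log2 fold change of the 45 genes was 0.59, against 0.01 over all transcripts. By role, 9 of 11 licensing genes were called higher (median 0.78), 4 of 4 chromatin genes (0.98), 6 of 8 clamp, loader and Okazaki genes (0.49), 2 of 4 nucleotide synthesis genes (0.29) and 1 of 3 G1/S regulators (0.31). Helicase activation had 4 of 6 higher and 1 lower (0.85), and the polymerases and primase had 3 of 9 higher and 3 lower (0.31). Of the 33 calls, 28 held under every alternative run, and those of Mcm7, Pole, Rfc2, Rfc4 and Uhrf1 did not.

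**Figure D2:**
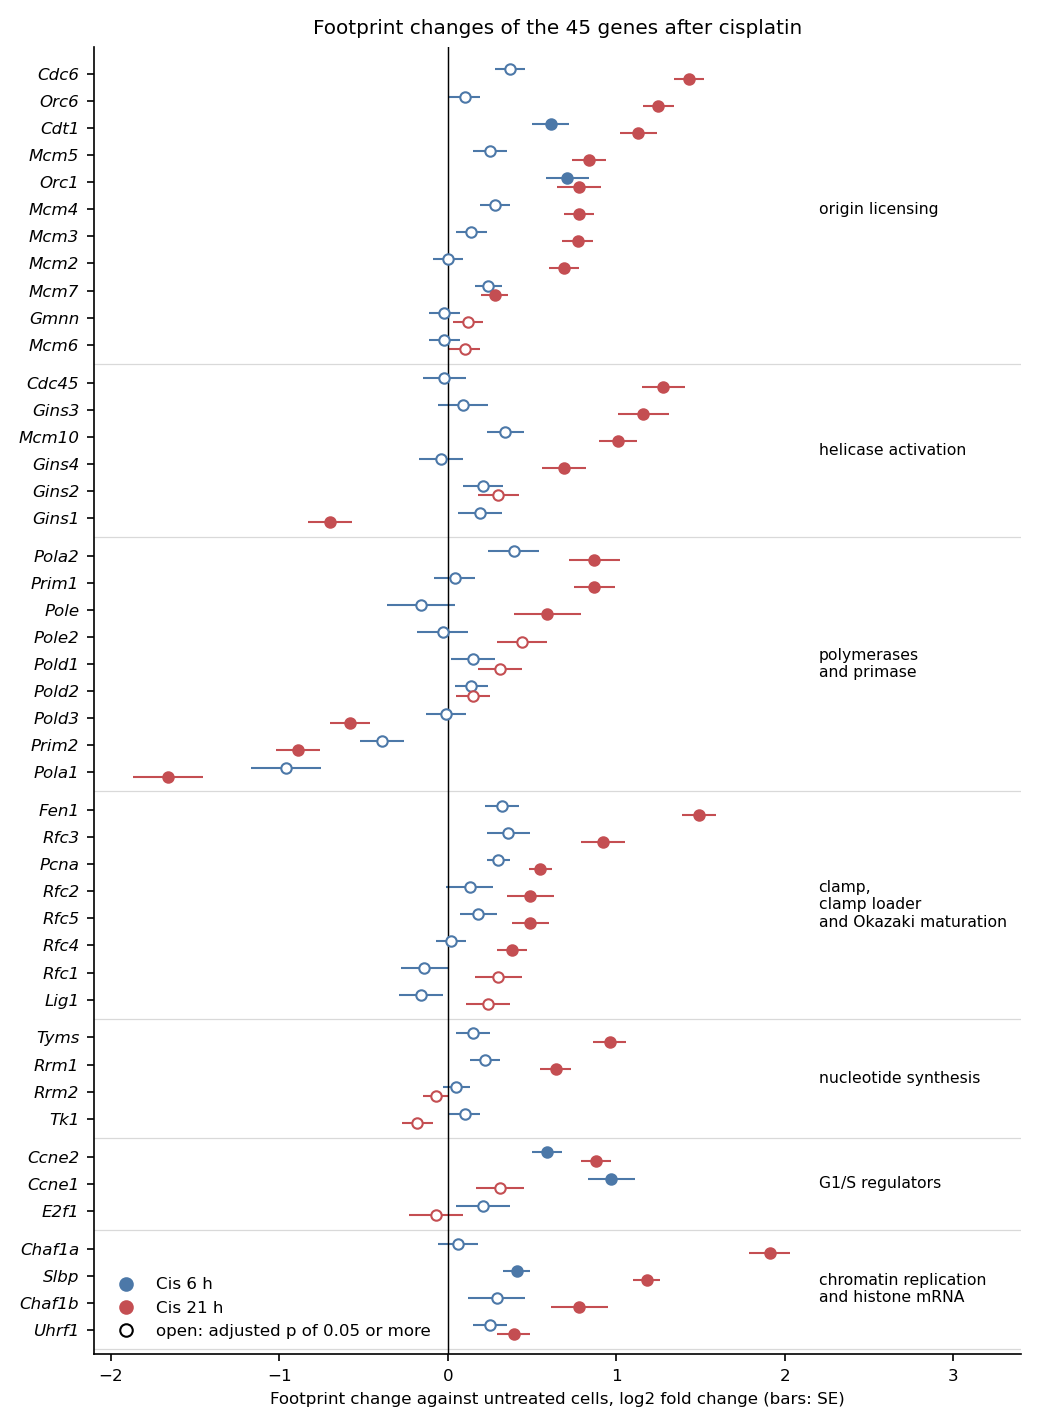
Log2 fold change of footprints against untreated cells for each of the 45 genes (x axis, bars are SE), grouped by role, at 6 h (blue) and 21 h (red); filled points passed the threshold of 0.05 on the adjusted p. The 21 h points lie to the right of the 6 h points for most genes, and Gins1, Pold3, Prim2 and Pola1 lie to the left of 0 at 21 h.

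Among the licensing genes, Cdc6, which loads the helicase together with ORC, rose most. It had 55.7 and 52.5 RPKM in untreated cells, 73 and 68.4 at 6 h and 147 and 154 at 21 h, so that the groups were apart at each time. The change at 21 h was 1.43 ± 0.09, or 2.7-fold (limma, adjusted p = 2.33e-05).

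Orc6, the small subunit of ORC, had 72.4 and 69.6 RPKM in untreated cells, 78.9 and 75.4 at 6 h and 184 and 165 at 21 h, with a change of 1.25 ± 0.09 at 21 h (limma, adjusted p = 4.69e-05). Cdt1 rose by 1.13 ± 0.11 (adjusted p = 0.000162). Nearly all of the rise of Orc6 came after 6 h, whereas Cdt1 rose in both intervals.

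Gmnn, the geminin that holds Cdt1 in check, was not called in either assay. Its footprints were 147 and 142 RPKM in untreated cells, 137 and 152 at 6 h and 169 and 154 at 21 h. The change at 21 h was 0.12, with a 95% interval of -0.09 to 0.33 (limma, adjusted p = 0.327).

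The 6 subunits of the Mcm helicase had footprint changes from 0.1 to 0.84 at 21 h. Mcm2 had 103 and 106 RPKM in untreated cells, 106 and 106 at 6 h and 163 and 184 at 21 h. Mcm3 had 95.4 and 94.1, 100 and 111, and 162 and 169 RPKM, and Mcm4 145 and 142, 164 and 189, and 249 and 258 RPKM. For these 3 subunits the 21 h libraries stood clear of all the others. Mcm5 had 172 and 152 RPKM in untreated cells, 189 and 201 at 6 h and 282 and 315 at 21 h. The changes of Mcm2 to Mcm5 at 21 h ran from 0.69 to 0.84, all called.

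Mcm6 and Mcm7 had the smallest of the 6 changes. Mcm6 had 138 and 149 RPKM in untreated cells, 142 and 144 at 6 h and 157 and 159 at 21 h, a change of 0.1 with a 95% interval of -0.1 to 0.3 at 21 h (limma, adjusted p = 0.392). Mcm7 had 266 and 277, 331 and 317, and 326 and 351 RPKM, and its change of 0.28 ± 0.08 at 21 h (adjusted p = 0.0256) was lost on leaving out untreated replicate 1, either 6 h library or 21 h replicate 2. In RNA-seq the changes at 21 h were also smallest for these 2 subunits, with Mcm4 at 1.05, Mcm3 at 0.79, Mcm2 and Mcm5 at 0.72, Mcm7 at 0.32 and Mcm6 at 0.23, the last not called (adjusted p = 0.161). The RNA call of Mcm7 was lost without any of the untreated or 21 h libraries. Mcm4 RNA was 23.1 and 23.7 RPKM in untreated cells and 46.4 and 57.7 at 21 h, and Mcm6 RNA 41.9 and 43 against 55.2 and 50.5 RPKM. The promoter of Mcm6 holds 3 E2F matches, the most among the 36 genes.

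**Figure D3:**
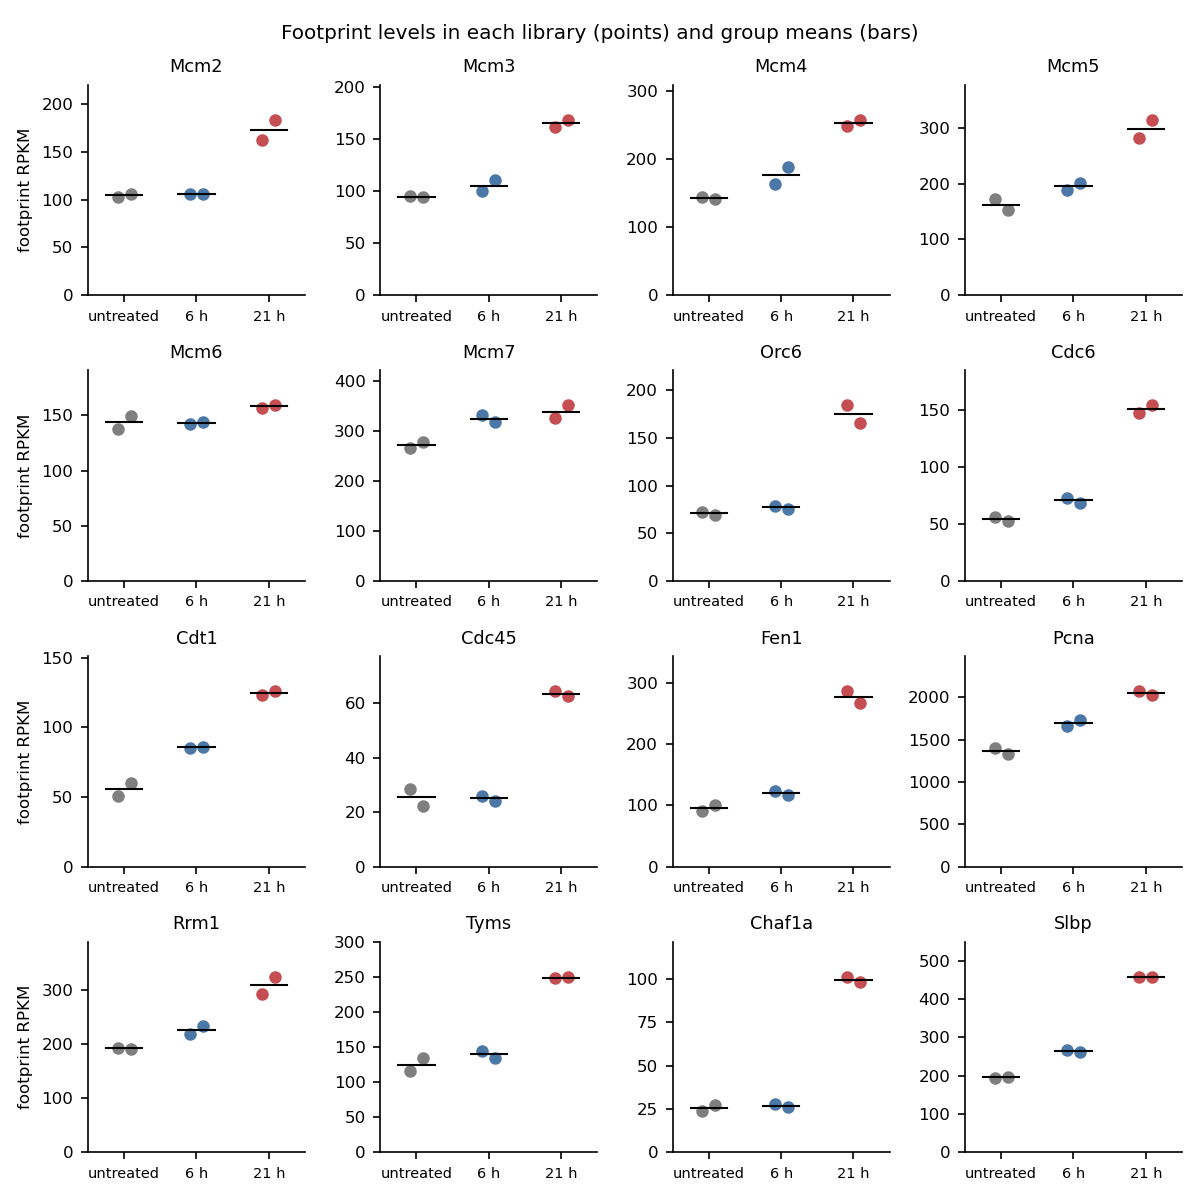
Footprint RPKM of 16 genes in each library (points, y axis from 0) with the group mean (bar), for untreated cells and Cis at 6 and 21 h. The 21 h libraries lie above the others for all genes but Mcm7, whose 6 h and 21 h libraries overlap, with Mcm6 (157 and 159 RPKM at 21 h) closest to the controls.

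In helicase activation, Cdc45 rose late. It had 28.5 and 22.4 RPKM in untreated cells, 26.1 and 24.3 at 6 h and 64.5 and 62.6 at 21 h. The untreated and 6 h libraries overlapped, and the change at 21 h was 1.28 ± 0.13 (limma, adjusted p = 0.000219). Mcm10 rose by 1.01 ± 0.11 (adjusted p = 0.000233).

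The 4 subunits of GINS, which work as a single tetramer, divided. Gins3 had 16 and 15.2 RPKM in untreated cells, 15.1 and 18.7 at 6 h and 35.2 and 37.6 at 21 h, a change of 1.16 ± 0.15 (limma, adjusted p = 0.000522), and Gins4 changed by 0.69 ± 0.13 (adjusted p = 0.00345). Gins2 was not called (0.3 ± 0.12, adjusted p = 0.0805). Gins1 went down, from 108 and 89 RPKM in untreated cells and 117 and 110 at 6 h to 69.2 and 55 at 21 h. Both 21 h libraries of Gins1 were below all others, and its change of -0.7 ± 0.13 (adjusted p = 0.00362) was kept under every alternative run.

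The polymerase α and primase genes also split within their complex. Pola1 had 11.1 and 12.4 RPKM in untreated cells, 5.58 and 6.13 at 6 h and 3.89 and 3.06 at 21 h. Its groups did not overlap at any time, and at 21 h the footprints had fallen by 1.66 ± 0.21 on the log2 scale (limma, adjusted p = 0.000485). Prim2, the large primase subunit, had 40.2 and 38.1 RPKM, 27.3 and 33.2, and 22 and 20.8 RPKM in the same order, and it fell by 0.89 ± 0.13 (adjusted p = 0.00116). In contrast, their partners Pola2 and Prim1 each rose by 0.87 (adjusted p = 0.00232 and 0.000765).

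Of the polymerase δ and ε genes, Pold3, an accessory subunit of polymerase δ, had 33.1 and 30.3 RPKM in untreated cells, 31.1 and 32.3 at 6 h and 22.9 and 20.3 at 21 h. It fell by 0.58 ± 0.12 (limma, adjusted p = 0.0066), with both 21 h libraries below the rest. Pole rose by 0.59 ± 0.2 (adjusted p = 0.0423), a call that was lost when any untreated or 21 h library was left out. Pold1, Pold2 and Pole2 were not called, with changes of 0.31, 0.15 and 0.44.

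Fen1, the nuclease that trims Okazaki fragment flaps, had 91 and 101 RPKM in untreated cells, 124 and 117 at 6 h and 287 and 267 at 21 h. The groups were apart at both times, and the rise at 21 h was 1.49 ± 0.1, or 2.81-fold (limma, adjusted p = 2.28e-05). Lig1, the ligase that seals the same fragments, was not called (0.24 ± 0.13, adjusted p = 0.164). Pcna reached 2073 and 2031 RPKM at 21 h, above both 6 h libraries, and rose by 0.55 ± 0.07 (adjusted p = 0.000527).

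Of the 5 clamp loader genes, Rfc3 rose most in footprints (0.92 ± 0.13), followed by Rfc2 and Rfc5 (both 0.49) and Rfc4 (0.38 ± 0.09). Rfc1, the large subunit, was not called (0.3 ± 0.14, adjusted p = 0.114 by limma). The Rfc2 value rests on 1 library, since it was 0.3 (adjusted p = 0.121) without untreated replicate 1. The call of Rfc4 was lost without untreated replicate 2 or 21 h replicate 2.

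The nucleotide synthesis genes took different courses. Tyms had 116 and 134 RPKM in untreated cells, 145 and 135 at 6 h and 248 and 250 at 21 h, a rise of 0.96 ± 0.1 (limma, adjusted p = 0.000246). Rrm1, the large subunit of ribonucleotide reductase, had 193 and 192, 220 and 234, and 294 and 325 RPKM, a rise of 0.64 ± 0.09 (adjusted p = 0.000721). Both genes were highest in the 21 h libraries.

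Rrm2, the partner of Rrm1, had the highest footprint level after Pcna in untreated cells, and its untreated and 21 h libraries overlapped. It had 1067 and 996 RPKM in untreated cells, 1066 and 1088 at 6 h and 945 and 1071 at 21 h. The change at 21 h was -0.07, with a 95% interval of -0.26 to 0.12 (limma, adjusted p = 0.531). Tk1, the thymidine kinase of the salvage pathway, had 277 and 269, 293 and 297, and 232 and 262 RPKM, a change of -0.18 with an interval of -0.38 to 0.01 (adjusted p = 0.123).

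E2f1 had 9.53 and 9.98 RPKM of footprints in untreated cells, 11.1 and 11.9 at 6 h and 9.88 and 9.1 at 21 h, with overlap between the untreated and 21 h libraries. Its change at 21 h was -0.07, with a 95% interval of -0.44 to 0.3 (limma, adjusted p = 0.749). Its RNA changed by 0.06 (interval -0.29 to 0.41, adjusted p = 0.811).

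Chaf1a, the large subunit of the histone chaperone CAF-1, had the largest rise of all 45 genes at 21 h. It had 24 and 27 RPKM in untreated cells, 27.8 and 26 at 6 h and 101 and 97.9 at 21 h. The untreated and 6 h libraries overlapped and those of 21 h were far above them, a change of 1.91 ± 0.12, or 3.75-fold (limma, adjusted p = 1.7e-05). Its partner Chaf1b rose by 0.78 ± 0.17 (adjusted p = 0.00676) and Slbp by 1.18 ± 0.08 (adjusted p = 2.2e-05).

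Uhrf1, which brings maintenance methylation to new DNA, had 132 and 142 RPKM in untreated cells, 160 and 171 at 6 h and 176 and 193 at 21 h. Its change of 0.39 ± 0.1 at 21 h (limma, adjusted p = 0.0122) was lost without untreated replicate 1 or 21 h replicate 2.

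The footprint changes at 21 h were also set beside the promoter windows. Of the 15 genes with a match, 9 were called higher and 2 lower (Pola1 and Pold3), with a median change of 0.44. Of the 21 without, 15 were called higher and 0 lower, with a median of 0.69. These counts are a description over genes that share the libraries.

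RNA-seq at 21 h gave 30 of the 45 genes higher (66.7%) and 2 lower (4.44%), while 11.6% of all 9459 transcripts were called higher and 12.2% lower. The median change was 0.74, against 0.02 over all transcripts. The count of higher members was 16 without untreated replicate 1 and 19 without either 21 h library, where 5.41, 6.6 and 5.93% of all transcripts were called higher, and 15 of the 32 calls held under every alternative. By role, 9 of 11 licensing genes were called higher (median 0.79), 7 of 8 clamp, loader and Okazaki genes (0.76), 4 of 6 in helicase activation (0.67), 4 of 4 chromatin genes (1.08), 2 of 4 nucleotide synthesis genes (0.39) and 2 of 3 G1/S regulators (0.79), while the polymerases and primase had 2 of 9 higher and 2 lower (0.47).

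The largest RNA rises were those of Cdc6, from 9.52 and 8.08 RPKM in untreated cells to 30.7 and 34 at 21 h, and of Orc6, from 14.5 and 18.7 to 58.7 and 58 RPKM. They came to 1.74 ± 0.15 (limma, adjusted p = 0.000115) and 1.71 ± 0.14 (adjusted p = 9.04e-05). Both 21 h libraries of these genes stood far above both untreated ones. Fen1 RNA was 13.5 and 14.1 RPKM in untreated cells, 15.7 and 16.8 at 6 h and 36.9 and 36.3 at 21 h (1.29 ± 0.13), and Chaf1a RNA 6.09 and 6.85, 7.19 and 6.49, and 18.3 and 16.1 RPKM (1.26 ± 0.18). In both, the 6 h libraries lay close to the untreated ones.

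Pcna had 123 and 123 RPKM of RNA in untreated cells, 153 and 149 at 6 h and 214 and 235 at 21 h, with no overlap between groups, and rose by 0.78 ± 0.08 at 21 h (limma, adjusted p = 0.00023). Slbp RNA was 15.6 and 19.5, 22.7 and 22.3, and 40.8 and 42.4 RPKM in the same order, a rise of 1.15 ± 0.14 (adjusted p = 0.000552). Rrm1 RNA rose by 0.78 ± 0.13 (adjusted p = 0.00241), while Rrm2 RNA had 78.3 and 83.8 RPKM in untreated cells and 80.7 and 90.1 at 21 h, a change of -0.01 with a 95% interval of -0.21 to 0.19 (adjusted p = 0.948). Tk1 RNA had 33.3 and 37.1 RPKM in untreated cells and 33.1 and 41.9 at 21 h, with an interval of -0.29 to 0.29.

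Ccne1 RNA was 6.7 and 9.48 RPKM in untreated cells, 12.6 and 12.1 at 6 h and 12 and 18.7 at 21 h. All 4 treated libraries stood above the controls, and those of 21 h differed from each other. The change at 21 h was 0.79 ± 0.22 (limma, adjusted p = 0.0288), and it was 0.52 (adjusted p = 0.178) without 21 h replicate 2. The call was also lost without untreated replicate 1.

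Pola1 RNA went from 3.8 and 5.61 RPKM in untreated cells to 1.45 and 1.43 at 21 h, and Prim2 RNA from 5.96 and 12.9 to 3.48 and 2.66 RPKM. Both fell by 1.46 on the log2 scale (limma, adjusted p = 0.0055 and 0.0182). The call of Pola1 was lost without untreated replicate 2 (adjusted p = 0.0631). That of Prim2 was lost without the same library, which gave -0.95 (adjusted p = 0.14), and without 21 h replicate 2. Its untreated RNA libraries differed from each other more than those of any other of the 45 genes.

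Footprints and RNA moved together for most of the genes at 21 h. Called higher in both assays were 28 genes, and Pola1 and Prim2 were called lower in both. Pola2 was called higher in footprints and not in RNA-seq, Ccne1 and Lig1 were called higher in RNA-seq and not in footprints, Gins1 and Pold3 were called lower in footprints and not in RNA-seq, and 10 genes were called in neither. The difference between the assays was not called for any of these 5 genes (TE change of 0.22 for Pola2, -0.48 for Ccne1 and -0.33 for Lig1, with adjusted p of 0.824, 0.514 and 0.556 by limma). Across the 45 genes the changes had a Pearson r of 0.868 and a Spearman rho of 0.86, and across 9312 transcripts 0.811 and 0.739. These describe genes measured in the same libraries, and the fold changes of an assay share its controls.

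**Figure D4:**
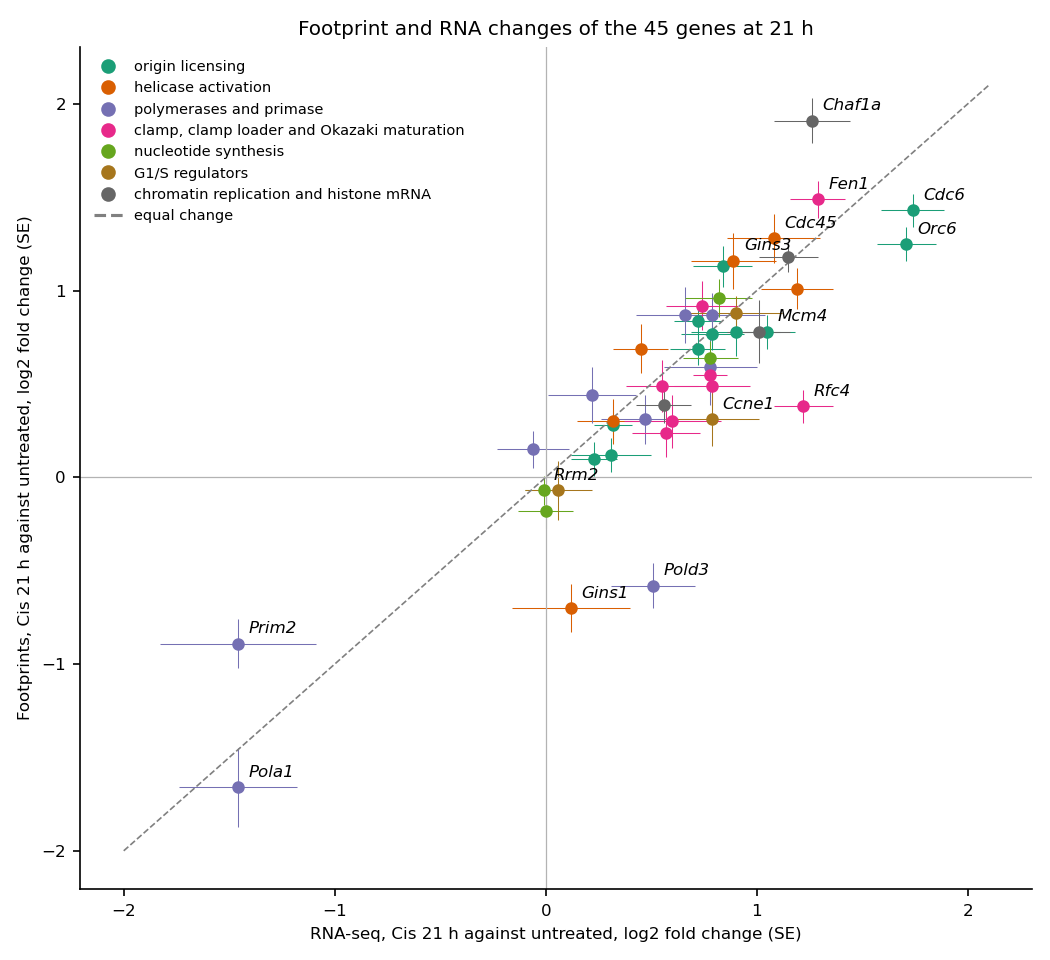
Log2 fold change at 21 h against untreated cells in RNA-seq (x axis) and in footprints (y axis) for the 45 genes, with SE bars, colours for the roles and a dashed line of equal change. Most genes lie along the line in the upper right, Prim2 and Pola1 in the lower left, and Rfc4, Gins1 and Pold3 below the line.

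TE was tested as the difference between the change in footprints and the change in RNA. At 6 h no transcript was called (0% of 9312 higher and 0% lower by limma), with 712 transcripts (7.65%) and 4 members (8.89%) at an unadjusted p under 0.05, and voom on recovered reads called 4 transcripts higher, 10 lower and no member. At 21 h, 0 members were higher and 1 was lower, Rfc4, while 0.258% of all transcripts were called higher and 0.15% lower. The median TE change of the members at 21 h was -0.12, against -0.04 over all transcripts.

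Rfc4, a small subunit of the clamp loader, changed more in RNA-seq than in footprints. Its RNA was 11.4 and 11.6 RPKM in untreated cells, 16.5 and 15.6 at 6 h and 29.9 and 28.4 at 21 h. Its footprints were 67.7 and 65.7, 70.7 and 66.5, and 87 and 91.6 RPKM. RNA thus rose by 1.22 and footprints by 0.38, and the TE change was -0.84 ± 0.15 (limma, adjusted p = 0.0408). The value lay between -0.77 and -0.91 when any library was left out, but the call was lost for 10 of the 12 libraries, and the adjusted p ranged from 0.0239 to 0.143 over all alternatives.

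Pold3 and Gins1 were called lower in footprints and were not called in RNA-seq. Pold3 RNA was 7.68 and 5.73 RPKM in untreated cells, 8.53 and 7.9 at 6 h and 10.5 and 9.98 at 21 h, all treated libraries above the controls. Its TE change of -1.09 ± 0.23 was not called (limma, adjusted p = 0.0679), and was called with a filter at a mean of 5 RPKM (adjusted p = 0.0416) and with voom (adjusted p = 0.00975). Gins1 RNA was 7.47 and 7.29 RPKM in untreated cells and 11.8 and 6.16 at 21 h, from a mean of 22 reads, and its TE change of -0.83 ± 0.34 was not called (adjusted p = 0.342). Chaf1a, whose footprints rose more than its RNA, had a TE change of 0.64 ± 0.2 that was not called either (adjusted p = 0.218).

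**Figure D5:**
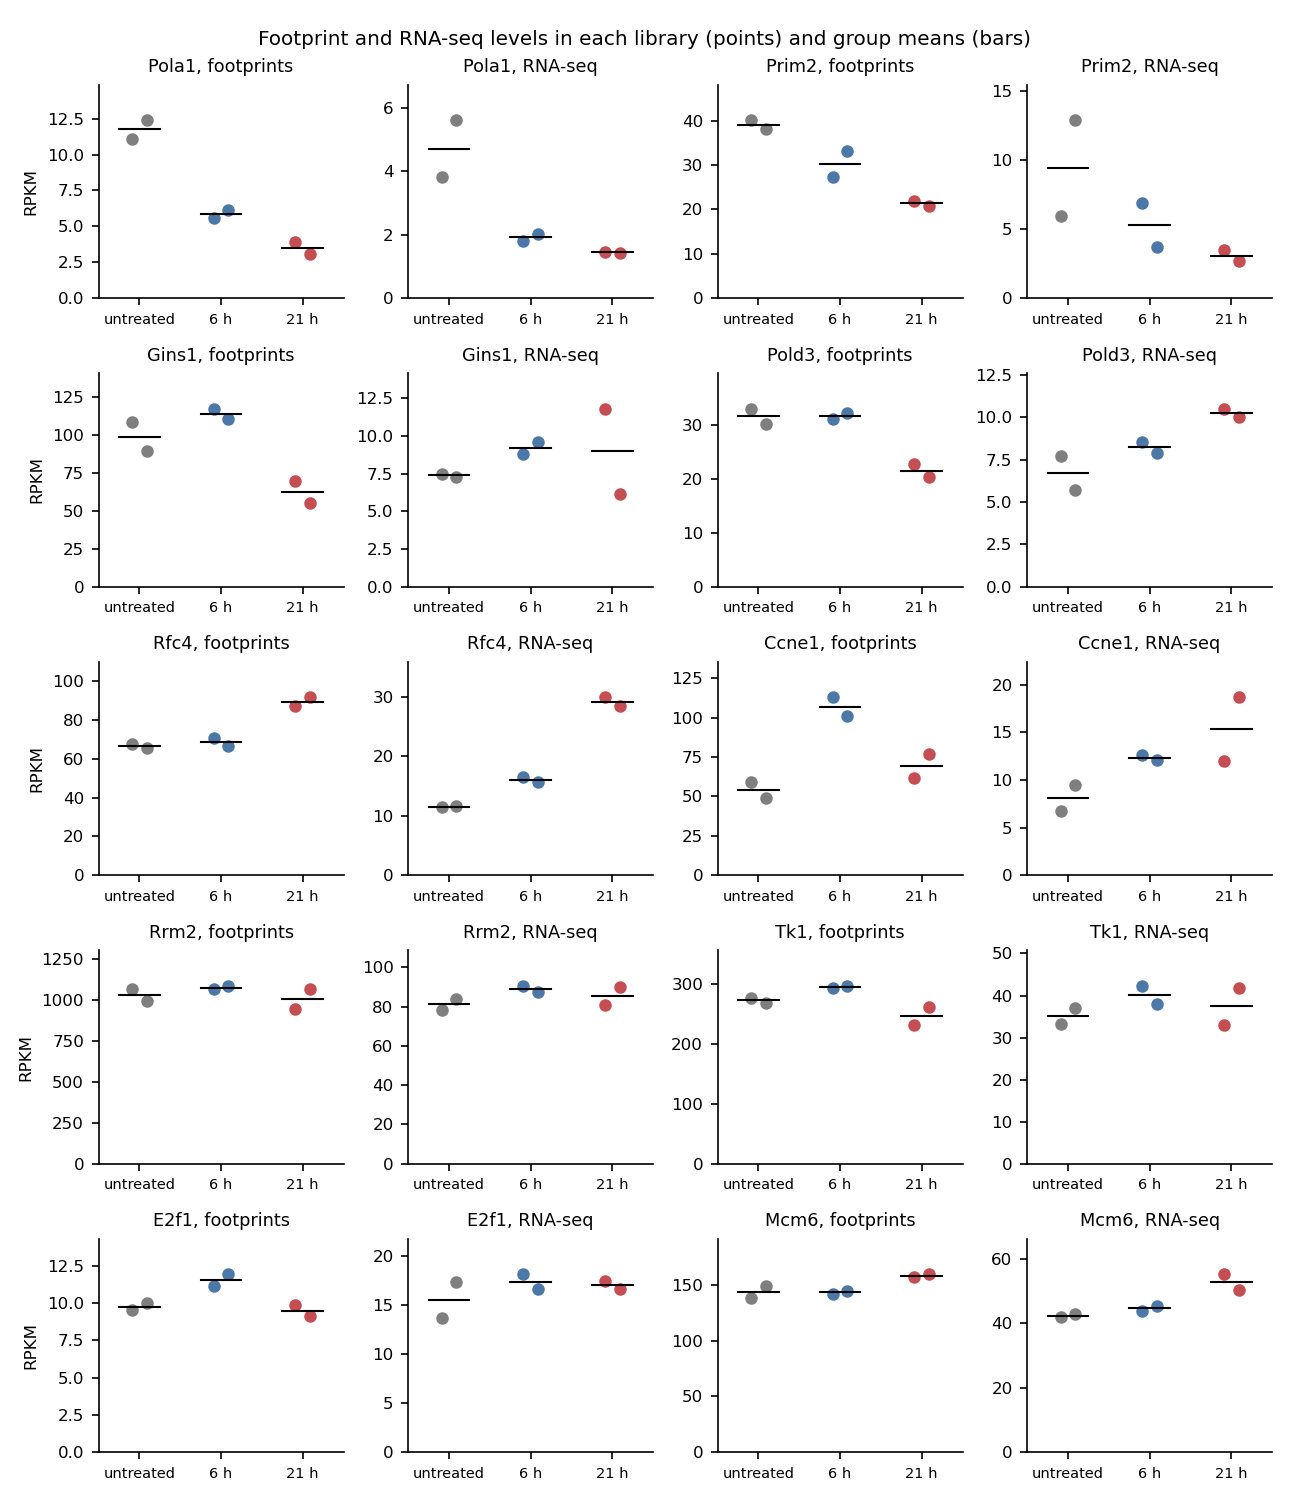
RPKM in each library (points, y axis from 0) with the group mean (bar) for 10 genes, footprints and RNA-seq side by side, in untreated cells and at 6 and 21 h of Cis. Pola1 and Prim2 go down in both assays, Gins1 and Pold3 go down in footprints at 21 h, Ccne1 footprints peak at 6 h (113 and 101 RPKM), and Rfc4 goes up more in RNA-seq than in footprints.

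The direct comparison of 21 h with 6 h asked which genes went on changing. Footprints were higher at 21 h for 26 members and lower for 6, while 15% of all transcripts were called higher and 15.7% lower. The median change was 0.42, against 0 over all transcripts. Chaf1a (1.84 ± 0.12), Cdc45 (1.3 ± 0.13), Fen1 (1.17 ± 0.1), Orc6 (1.15 ± 0.09) and Gins3 (1.07 ± 0.15) led the rises, with adjusted p up to 0.00136 by limma. By role, 7 of 11 licensing genes were higher (median 0.51), 6 of 8 clamp, loader and Okazaki genes (0.38), 2 of 4 chromatin genes (0.63), 4 of 6 in helicase activation with 1 lower (0.7), 4 of 9 polymerase and primase genes with 3 lower (0.16), 2 of 4 nucleotide synthesis genes with 1 lower (0.15) and 1 of 3 G1/S regulators with 1 lower (-0.29). The 6 genes that fell were Gins1 (-0.9 ± 0.13), Pola1 (-0.7 ± 0.21), Ccne1 (-0.66 ± 0.14), Pold3 (-0.57 ± 0.12), Prim2 (-0.51 ± 0.13) and Tk1 (-0.28 ± 0.09). Of these, the call of Gins1 was kept under every alternative, and the other 5 were lost without 1 or more of the libraries compared.

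Ccne1 is the gene that went up at 6 h and down afterwards, and its fall from 6 to 21 h had an adjusted p of 0.00825 (limma), and of 0.0606 without 6 h replicate 1. Orc1 changed by 0.07 from 6 to 21 h and Mcm7 by 0.04, neither called. The counts of higher and lower members fell whichever footprint library was left out. Over all transcripts these counts fell too. The members' median lay between 0.34 and 0.44 when 1 library was left out.

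In RNA-seq, 21 members were higher at 21 h than at 6 h and 0 were lower (7.53% and 8.2% of all transcripts), with a median of 0.51. At an unadjusted p under 0.05 there were 29 members (64.4%), against 31% of all transcripts, and voom on recovered reads called 0 lower as well. Cdc6 (1.23 ± 0.15), Chaf1a (1.12 ± 0.18), Orc6 (1.05 ± 0.14), Fen1 (1 ± 0.13) and Prim1 (0.99 ± 0.25) led. By role, 7 of 11 licensing genes were higher (median 0.62), 5 of 8 clamp, loader and Okazaki genes (0.69), 4 of 4 chromatin genes (0.62), 2 of 6 in helicase activation (0.3), 1 of 9 polymerase and primase genes (0.16), 2 of 4 nucleotide synthesis genes (0.21) and 0 of 3 G1/S regulators (0.12). Prim1 RNA, from the catalytic primase subunit, was 11.4 and 10.5 RPKM in untreated cells, 6.56 and 12.4 at 6 h and 19.8 and 21.2 at 21 h. The count of higher members fell whichever RNA-seq library was left out, and so did the count over all transcripts. The members' median lay between 0.46 and 0.53 when 1 library was left out. The Prim1 change was 0.55 without 6 h replicate 1. Without 6 h replicate 2, Rfc3 changed by 0.46 in place of 0.72 and Uhrf1 by 0.29 in place of 0.46. Ccne1 RNA was not called between these times (0.12 ± 0.22). No member was called in TE between these times, while 0.591% of all transcripts were called higher and 0.419% lower, and 7 members (15.6%) had an unadjusted p under 0.05, against 13.6% of all transcripts.

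Further genes of the pathway, 99 in 6 lists that hold none of the 45, were counted in the same fits. At 6 h footprints were higher on 6 (6.06%) and lower on 0 of them, against 1.05 and 0.991% of all transcripts. At 21 h they were higher on 39 (39.4%) and lower on 13 (13.1%), against 18.9 and 20.2% of all transcripts, which are also the shares to read the lists below against. Among 20 other fork and polymerase factors, 13 were higher (65%) and 1 lower at 21 h (median 0.58), with Atad5 (1.2), Rpa2 (1.19) and Clspn (1.04) the largest rises and Rnaseh2b (-0.42) the fall. Among 14 other licensing and firing factors, 4 were higher (28.6%) and 0 lower (median 0.09), led by Recql4 (1.25), Cdc7 (0.85), the kinase that fires origins, and Mtbp (0.76).

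Of 11 other deoxynucleotide genes 4 were higher (36.4%) and 1 lower at 21 h (median 0.01), with the deoxycytidine kinase Dck at 0.55, the thymidylate kinase Dtymk at 0.54 and the mitochondrial kinase Dguok at -0.6. Of 22 genes of purine and pyrimidine synthesis 5 were higher (22.7%), led by Umps (0.99), and 6 lower (27.3%), led by Ctps2 (-1.07), with a median of 0.06, shares near those of all transcripts. Of 25 other G1/S regulators 10 were higher (40%) and 5 lower (20%, median 0.24), with the Cdk inhibitor Cdkn1a at 2.06 and Cdk6 at -1.64. Cdkn1a footprints rose from 56 and 54.9 RPKM to 108 and 98.8 at 6 h and 260 and 217 at 21 h. Of 7 other chromatin replication genes 3 were higher (42.9%), led by Asf1b (0.75), and 0 lower (median 0.27).

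RNA-seq called 0 of 98 tested genes of these lists at 6 h, where 0% of all transcripts were called. At 21 h it called 28 higher (28.6%) and 3 lower (3.06%), against 11.6 and 12.2% of all transcripts, and Cdk6 (-1.94) had the largest fall. In TE, 1 of the 98 (1.02%) was called at 21 h, Nme2 (1.06, higher), against 0.258% of all transcripts.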

How the data were processed

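The authors deposited RPKM for 1 transcript per gene in 6 ribosome profiling and 6 RNA-seq libraries, scaled by coding sequence length for footprints and by transcript length for RNA-seq. Their processing notes name cutadapt, STAR and GRCm39, and the counting tool, annotation and strand setting are not given in the sources used here. RPKM times length gave whole reads for 100% of values, and depths are sums of these reads. Group and replicate came from the labels.

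Median-of-ratios factors put the libraries of each assay on a common scale. Transcripts whose mean RPKM reached 1 entered a model of log2(RPKM + 0.5) in limma 3.58.1 (R 4.3.3; lmFit, eBayes with trend, all groups of an assay together). TE was the interaction over all 12 libraries. All p-values are two-sided and were adjusted over all transcripts by Benjamini-Hochberg, with a threshold of 0.05. An exact permutation test of 2 libraries against 2 cannot give a p below 0.333. The 6 h and 21 h comparisons share the untreated libraries. The procedure was tested on simulated data with 200 changed genes and a coefficient of variation of 0.1 between libraries, beyond the sampling of reads. With a log2 change of 1 built in at 21 h against untreated, it called 155 of 198 changed genes in footprints (78.3%). In RNA-seq it called 68 of 198 (34.3%), and in TE 24 of 197 (12.2%). Of the unchanged genes it called 10 of 10199, 1 of 9230 and 0 of 9111 in the same order. A gene not called in RNA-seq or TE is therefore not shown to be unchanged. In the data far more transcripts were called at 21 h in footprints and RNA-seq, so the simulated shares need not carry over.

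The 45 genes and the pathway lists were chosen with earlier results of these data known. Per-library values are given for a fixed set of genes (the Mcm subunits, Pcna, nucleotide enzymes, cyclins E, E2f1, licensing factors, Slbp and Uhrf1) and, in each comparison, for up to 5 members each way with the largest called changes and no overlap of groups. Other members with values were chosen after these were seen. Of the pathway lists at most 3 genes each way were named, and some items are not reported here. Same-numbered replicates did not deviate together (r from -0.04 to 0.03 over 15 pairs of groups), so they were not paired. Alternatives covered the pseudocount, filter, scaling, trend, samples in the fit, replicate block, voom on recovered reads and each library left out. GC content and genomic length were not analysed here. Promoters are from RefSeq GRCm38.p6.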

Additional observations from a re-analysis of the deposited data

Results flagged for a closer look

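Genes are listed here because their change differed between the 2 treatment times, tested directly as 21 h against 6 h (limma, log2 fold changes). Of the 32 footprint calls, 15 held under every alternative run, and of the 21 RNA-seq calls 6 did. Footprints were at least 1 log2 unit higher at 21 h for Chaf1a (1.84), Cdc45 (1.3), Fen1 (1.17), Orc6 (1.15), Gins3 (1.07) and Cdc6 (1.06). They were higher by less for Prim1 (0.83), Tyms (0.81), Slbp (0.77), Pole (0.75), Gins4 (0.73), Mcm2 (0.69), Mcm10 (0.67), Mcm3 (0.63), Mcm5 (0.59), Rfc3 (0.56), Cdt1 (0.51), Mcm4 (0.5), Pola2 (0.49), Pole2 (0.47), Rfc1 (0.44), Rrm1 (0.42), Lig1 (0.4), Rfc4 (0.36), Ccne2 (0.29) and Pcna (0.26). They were lower at 21 h for Gins1 (-0.9), Pola1 (-0.7), Ccne1 (-0.66), Pold3 (-0.57), Prim2 (-0.51) and Tk1 (-0.28). In RNA-seq, values were higher at 21 h for Cdc6 (1.23), Chaf1a (1.12), Orc6 (1.05), Fen1 (1), Prim1 (0.99), Cdc45 (0.97), Mcm10 (0.9), Orc1 (0.76), Mcm4 (0.74), Rfc3 (0.72), Slbp (0.72), Mcm2 (0.7), Rfc4 (0.69), Lig1 (0.68), Tyms (0.64), Rrm1 (0.63), Mcm3 (0.62), Mcm5 (0.52), Chaf1b (0.51), Uhrf1 (0.46) and Pcna (0.41).

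Rfc4 is listed because its change at 21 h differed between footprints and RNA-seq, a TE change of -0.84 (limma, adjusted p = 0.0408). No explanation was tested for any of these values.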

How the results depend on the processing

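No called member changed sign in 2040 alternative values of 124 called results, and 300 of them were no longer past the threshold. With all members counted, footprints at 6 h had 0 called higher with no filter on low values, without the trend or with the replicate block, and 13 with voom, and 1 called lower with a pseudocount of 1, a mean of at least 5 RPKM or only the groups compared, and 2 with voom. RNA-seq at 6 h had 1 higher and 1 lower with voom. RNA-seq at 21 h had 1 lower with no filter, a mean of at least 5 or no trend, and a median of 0.65 with quantile normalization. RNA-seq from 6 to 21 h had 13 higher with no filter and 10 without the trend, and a median of 0.66 with no scaling, while footprints had 0.36 with quantile normalization. TE at 21 h had 0 lower with no filter, no trend, only the groups compared or the replicate block, and 2 with a mean of at least 5. The median TE change from 6 to 21 h was -0.24 with no scaling. The block changed none of the other counts above by over 1.5 times. Outside the alternatives' own construction, the causes were not tested.

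Leaving out 1 library at a time gave, for footprints at 6 h, 0 to 5 higher, 0 to 1 lower and a median of 0.13 to 0.16. At 21 h it gave 24 to 31 higher, 4 to 4 lower and 0.57 to 0.7, and from 6 to 21 h 16 to 24, 2 to 5 and 0.34 to 0.44. For RNA-seq it gave 0 to 0 in both directions and 0.17 to 0.25 at 6 h, 16 to 31 higher, 0 to 2 lower and 0.68 to 0.77 at 21 h, and 8 to 18 higher, 0 to 0 lower and 0.46 to 0.53 from 6 to 21 h. For TE it gave medians of -0.08 to 0.01 at 6 h, -0.13 to -0.05 at 21 h with 0 to 1 lower, and -0.13 to -0.01 from 6 to 21 h. A lone library was assumed to vary like the other groups.

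Over all transcripts, footprints at 6 h had 109 higher and 103 lower, against 9 and 8 with no filter, 181 and 160 with a mean of at least 5, 0 and 0 without the trend, 198 and 244 with only the groups compared, 17 and 20 with the block and 454 and 822 with voom. RNA-seq at 21 h had 1094 and 1154, against 969 and 766 with a mean of at least 5 and 712 and 893 without the trend, and from 6 to 21 h 712 and 776, against 425 and 493 with no filter, 360 and 430 without the trend and 1234 and 514 with no scaling. At 6 h voom called 56 and 172 in RNA-seq and 4 and 10 in TE, against 0. In RNA-seq with no scaling, the higher share of calls was 70.6% in place of 47.8% from 6 to 21 h. At 21 h against untreated it was 58.6% in place of 48.7%. The RNA-seq median of all transcripts moved by 0.14 and 0.08 in the same order. TE at 21 h had 24 and 14, against 4 and 4 with no filter, 0 and 0 without the trend, 2 and 1 with only the groups compared, 2 and 3 with the block, 74 and 78 with voom, 37 and 30 with a mean of at least 5, 27 and 23 with a pseudocount of 1, 21 and 7 with the 3 transcripts left out of the RNA-seq total and 15 and 13 with quantile normalization. TE from 6 to 21 h had 55 and 39, against 33 and 21 with no filter, 34 and 15 with only the groups compared, 1 and 3 without the trend, 42 and 112 with no scaling, 27 and 16 with the block and 80 and 91 with voom. Its median moved by -0.12 with no scaling. Leaving out 1 library gave 0 to 197 higher and 0 to 201 lower for footprints at 6 h, 1366 to 1828 and 1441 to 1929 at 21 h and 756 to 1499 and 846 to 1488 from 6 to 21 h, 510 to 1147 and 549 to 1165 for RNA-seq at 21 h and 261 to 588 and 414 to 613 from 6 to 21 h, and 1 to 27 and 1 to 16 for TE at 21 h and 13 to 52 and 2 to 32 from 6 to 21 h. The lowest member read numbers were 11 in RNA-seq and 41 in footprints, and depth was not varied.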
